A study of Mus musculus with 7 samples.

Results

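Disallowed genes are genes that nearly all tissues use but that mature pancreatic β-cells keep at a low level. The 10 genes described here are *Ldha*, *Slc16a1*, *Acot7*, *Pdgfra*, *Oat*, *Maf*, *Cxcl12*, *Zyx*, *Fcgrt* and *Smad3*. These genes were chosen by name, not by a measured value, but with earlier results of these data known. They are 10 of the 22911 genes named on the array and are covered by 15 of its 56605 probes, all of which were kept. Transcripts were measured on single-colour Agilent arrays in islets of 7 mice, 3 control and 4 Wnt4βKO. Wnt4βKO mice carried Pdx1CreER, a tamoxifen-inducible Cre recombinase under the Pdx1 promoter, and 2 floxed alleles of *Wnt4*, which encodes a secreted WNT ligand (Pdx1CreER Tg+; Wnt4fl/fl). The controls were their Cre-negative littermates (Pdx1CreER Tg-; Wnt4fl/fl), whose genotype the labels abbreviate to WT although both their *Wnt4* alleles were floxed. All 7 mice received tamoxifen by gavage at 4 to 5 weeks of age, in a solution of 50 mg/mL, and islets were taken at 7 weeks. The methods describe the mice as males. No control carried Pdx1CreER, so effects of the transgene or of active Cre cannot be told apart from those of the loss of *Wnt4*. Pdx1 is also made in some islet δ-cells, and whole islets hold cells in which it is not made. A further control sample that the study set aside for quality was not analysed here.

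Each array had 45.5 to 49.0% of its spots well above background and 0 saturated spots. The arrays differed in brightness before scaling. The 75th percentile of the scanner software's processed signal was 44.4, 82.4 and 56.0 in controls and 49.0 to 61.5 in Wnt4βKO islets. A spot was called well above background by the scanner software, and a probe was tested when this held on at least 3 of the 7 arrays. All values are normalized log2 signals, on which a difference of 1 is a doubling, and differences are Wnt4βKO minus control. Array values follow the order of the replicate numbers, 2, 3 and 4 for controls and 1 to 4 for Wnt4βKO. Limma p-values are adjusted over all tested probes unless said otherwise. For some of the brighter probes an exact permutation p of the difference of means is given too, two-sided as the smaller tail doubled, which over the 35 ways to split 7 mice into 3 and 4 cannot fall below 0.0571. All 10 β-cell, 5 α-cell and 4 δ- and PP-cell marker genes were detected, and so were all 15 acinar markers. The *Wnt4* probe stood at 11.56, 11.17 and 11.77 in controls and at 11.30, 10.80, 11.04 and 10.92 in Wnt4βKO islets. It was thus at 71.3% of control, with groups that overlapped (log2 difference -0.49 ± 0.17 SE, adjusted p = 0.651). Whether that probe lies in the floxed part of the gene was not determined here. *Slc2a2*, the β-cell glucose transporter GLUT2, was below control on all 4 Wnt4βKO arrays (difference -1.54 ± 0.10 SE, adjusted p = 0.00877) and *Ins1*, an insulin gene, was above it on all 4 (0.29, adjusted p = 0.632). Over all tested probes, 3.7% were below every control on all 4 and 3.54% above. Of the 10 β-cell markers, 6 differences were positive and 4 negative. Their mean was 11.60 to 11.74 in controls and 11.44 to 11.68 in Wnt4βKO islets, with groups that overlapped. *Ptf1a*, an acinar transcription factor, lay below control on all 4 arrays (-1.25, adjusted p = 0.496), and the mean of the 15 acinar markers was 12.96 to 13.72 against 13.78 to 13.94 in controls. The part of this acinar difference in the results below was not tested. A fit that carried the acinar mean as a covariate cannot separate it from genotype, because that mean was lower on every Wnt4βKO array.

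A β-cell couples glucose to insulin release by sending nearly all pyruvate into mitochondria, and little of it leaves as lactate. Lactate dehydrogenase A (*Ldha*) would turn pyruvate into lactate, and the monocarboxylate transporter MCT1 (*Slc16a1*) would let lactate and pyruvate made by other tissues enter the cell and trigger insulin release. Active *SLC16A1* in human β-cells is known to cause insulin secretion during exercise. Other disallowed genes act in lipid and amino acid metabolism, growth signalling and adhesion, and their silencing is laid down as β-cells mature after birth. DNA methylation by DNMT3A, the transcription factor RFX6 and microRNAs of the miR-29 family are among the known repressors. In whole islets a transcript may come from any cell present, and fewer cells of a type cannot be told apart from less RNA per cell.

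Of the 10 genes, 7 had a tested probe (9 probes in all), while *Slc16a1*, *Pdgfra* and *Maf* stayed at background on all 7 arrays. None of the 9 tested probes had an adjusted limma p under 0.05, against 4 of 26151 over the whole array (0.0153%). At an unadjusted p under 0.05 the count was 1 of 9, the *Zyx* probe, higher in Wnt4βKO islets. On the whole array 3.33% of tested probes were higher and 3.63% lower at that threshold, 6.96% in all. With 1 probe per gene, 3 differences were positive and 4 negative, and their median was -7.02e-05, against 0.0027 over all tested probes.

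**Figure D1:**
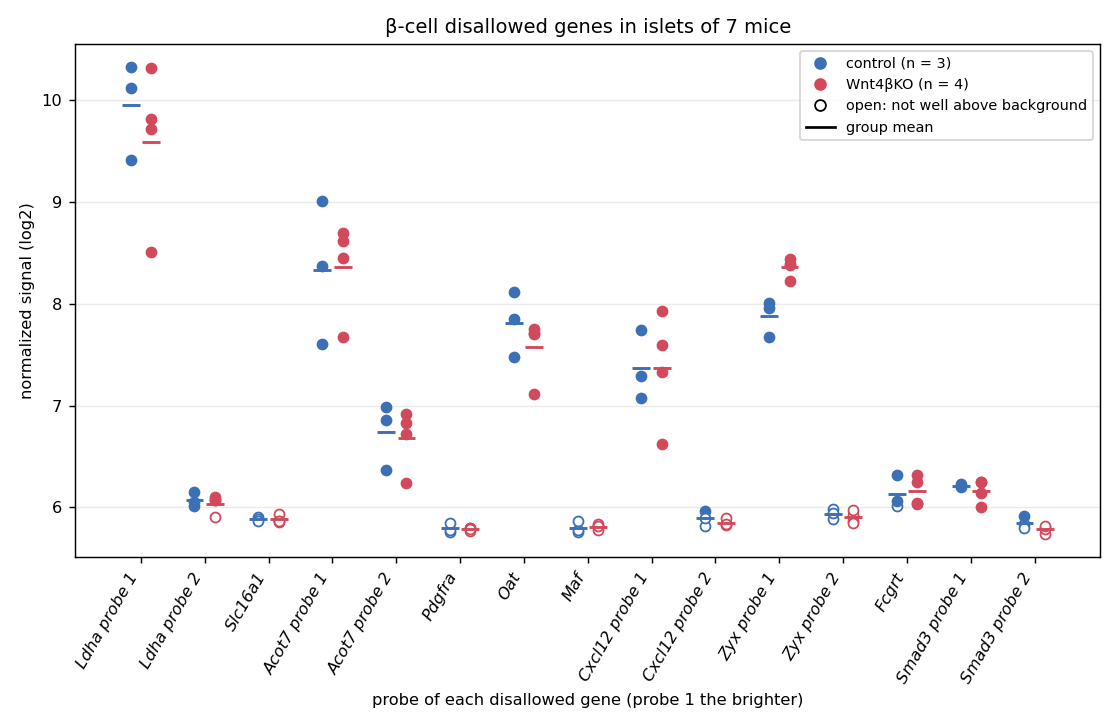
Normalized log2 signal (vertical axis) of each of the 15 probes of the 10 disallowed genes (horizontal axis) on every array. Blue points are the 3 control arrays, red points the 4 Wnt4βKO arrays, bars are group means and open points were not well above background. The probes of *Slc16a1*, *Pdgfra* and *Maf* lie between 5.76 and 5.94 with open points only, and *Zyx* probe 1 has every red point above every blue one.

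The gene with the clearest difference was *Zyx*, which encodes zyxin, a LIM protein of focal adhesions and actin stress fibres. Its bright probe (A_51_P473252) gave 7.67, 7.96 and 8.0 in controls. In Wnt4βKO islets it gave 8.23, 8.39, 8.38 and 8.44. All 4 Wnt4βKO arrays thus lay above all 3 controls, a separation seen in 3.54% of tested probes (7.24% with either group on top), and control replicate 2 was the lowest. The means were 7.88 ± 0.18 (SD, n = 3) and 8.36 ± 0.092 (SD, n = 4), a 1.40-fold difference. The log2 difference was 0.48 ± 0.10 SE with a 95% interval of 0.24 to 0.72, and the limma p was 0.494 after adjustment over all 26151 probes and 0.00199 before it. The exact permutation p was 0.0571 with the smaller tail doubled and 0.0286 by the absolute difference, in each case the smallest that 35 splits allow. The difference did not pass the adjusted limma threshold. The raw median spot signals, before normalization, were 132, 290 and 217 in controls and 308, 306, 284 and 271 in Wnt4βKO islets, and these ranges overlapped. The control at 290, replicate 3, was the brightest array and the control at 132, replicate 2, the dimmest by the 75th percentile of the processed signal (82.4 and 44.4). The normalized groups also overlapped under median scaling, where the difference was 0.45 and its unadjusted p passed 0.05 no longer (0.0706), and with the processed signal the difference grew to 0.78. Within row 1 of the slide, which held control replicate 4 and Wnt4βKO replicates 1 and 2, the difference was 0.31, and within row 2 it was 0.60. A second *Zyx* probe (A_55_P2503485) was at background on all 7 arrays and gives no check of the first.

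The 7 zyxin partners examined were *Lpp* and *Trip6*, which encode LIM proteins of the same family, *Vasp*, *Enah* and *Evl*, which encode the actin regulators that zyxin binds, and the α-actinin genes *Actn1* and *Actn4*. All 7 were tested and 0 had an unadjusted p under 0.05. Their differences ran from -0.078 to 0.23 with a median of 0.060, and in none were the groups separated.

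The 250 bases before the *Zyx* start (GRCm38.p6, chr6:42349578-42349827, plus strand, from RefSeq) are shown beside those of *Slc16a1* and *Ldha*, the metabolic pair best known as disallowed, because methylation of CG pairs is one known means of silencing such genes. The sequences run 5′ to 3′ in lower case with each CG pair in capitals. The *Slc16a1* window lies at chr3:104638414-104638663 and that of the first *Ldha* start at chr7:46845554-46845803, both on the plus strand.
Slc16a1: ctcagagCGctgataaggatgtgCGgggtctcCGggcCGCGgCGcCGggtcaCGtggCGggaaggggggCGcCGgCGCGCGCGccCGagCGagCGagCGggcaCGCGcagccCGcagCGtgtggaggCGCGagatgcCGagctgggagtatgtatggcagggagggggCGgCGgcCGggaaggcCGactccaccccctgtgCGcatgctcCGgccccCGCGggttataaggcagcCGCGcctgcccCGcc
Ldha: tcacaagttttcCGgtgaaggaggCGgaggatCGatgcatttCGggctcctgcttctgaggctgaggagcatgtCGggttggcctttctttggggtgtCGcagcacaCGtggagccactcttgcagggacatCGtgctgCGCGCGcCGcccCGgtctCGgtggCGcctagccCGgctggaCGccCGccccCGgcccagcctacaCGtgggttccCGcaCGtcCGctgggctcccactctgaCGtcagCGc
Zyx: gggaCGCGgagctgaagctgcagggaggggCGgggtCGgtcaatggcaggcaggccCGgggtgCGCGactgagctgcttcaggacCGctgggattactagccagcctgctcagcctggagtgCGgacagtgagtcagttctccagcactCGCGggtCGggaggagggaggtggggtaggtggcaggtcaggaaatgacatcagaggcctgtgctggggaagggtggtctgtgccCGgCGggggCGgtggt
The *Slc16a1* window holds 37 CG pairs, as many as only 2.2% of the 32851 mouse promoter windows of this length, whose median is 6. The first *Ldha* window holds 25, reached by 10.7% of windows, a second *Ldha* start 9 (40.3%) and *Zyx* 15 (27.3%). A promoter window was found for 9 of the 10 genes. Of those not shown, *Pdgfra*, also at background on all 7 arrays, holds 4 CG pairs. *Fcgrt* holds 5, *Acot7* 6, *Oat* and *Cxcl12* 14 each, and *Smad3* 22. ACGTG, the core letters of the hypoxia response element and of many E-boxes, was searched on both strands. It occurred in 2 of the 10 windows of these genes, those of *Slc16a1* and of the first *Ldha* start, and in 16.6% of all windows. Methylation was not measured on these arrays.

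*Slc16a1* signal could not be told from background on any of the 7 arrays. Its probe (A_51_P397367) had raw median signals of 21.5, 23 and 21 in controls. In Wnt4βKO islets they were 22, 23, 21 and 19, over a local background of 20 to 23. No group stood above the background, and no fold is given. In rodent β-cells the miR-29 family is a known repressor of *Slc16a1*. The 3 mature sequences, from RefSeq, share the seed, bases 2 to 8, in capitals.
mmu-miR-29a-3p: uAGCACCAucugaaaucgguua
mmu-miR-29b-3p: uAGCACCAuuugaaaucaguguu
mmu-miR-29c-3p: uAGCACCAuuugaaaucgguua
These microRNAs were not measured here.

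*Ldha* was read by a bright and a dim probe. The bright probe (A_55_P2012984) was well above background on all 7 arrays, at 9.41, 10.13 and 10.33 in controls. In Wnt4βKO islets it stood at 8.51, 9.82, 9.72 and 10.32. The groups overlapped, with Wnt4βKO replicate 1 the lowest and control replicate 2 next. The means were 9.95 ± 0.48 (SD, n = 3) and 9.59 ± 0.77 (SD, n = 4). The difference of -0.36 ± 0.43 SE was within the replicate spread (95% interval -1.36 to 0.63, exact permutation p = 0.514, adjusted p = 0.913). It was -1.16 within slide row 1 and 0.25 within row 2, and without Wnt4βKO replicate 1 it was -0.0023. The dim probe (A_55_P2141876) lay between 5.90 and 6.15 and was not well above background in Wnt4βKO replicate 1. Its difference was -0.035 (SE 0.079, adjusted p = 0.959).

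The list of lactate and pyruvate handling genes had 20 of 21 genes tested, 1 higher and 1 lower at an unadjusted limma p under 0.05, and 0 after adjustment. The median difference was 0.051. *Ldhb*, the other main lactate dehydrogenase subunit, differed by 0.058 (adjusted p = 0.941) on its bright probe and by -0.13 on a dimmer one. The lactate transporters *Slc16a3* and *Slc16a7* differed by 0.054 (adjusted p = 0.956) and 0.20 (adjusted p = 0.888). A dimmer *Slc16a7* probe gave -0.032 (adjusted p = 0.951). Basigin (*Bsg*), a chaperone of lactate transporters, differed by -0.10 (adjusted p = 0.972). The mitochondrial pyruvate carrier subunits *Mpc1* and *Mpc2* differed by -0.31 (adjusted p = 0.886) and 0.15 (adjusted p = 0.926). A second *Mpc1* probe of similar signal gave -0.053 (adjusted p = 0.986). The groups overlapped for each of these 6 genes.

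*Gpd2* and *Pdk1* were the list's genes whose groups did not overlap. *Gpd2*, the mitochondrial arm of the glycerol phosphate shuttle that carries glycolytic electrons into β-cell mitochondria, was at 7.26, 7.80 and 7.76 in controls. In Wnt4βKO islets it was at 7.17, 7.05, 7.07 and 7.10. All 4 lay below every control, as did 3.7% of tested probes, but Wnt4βKO replicate 1 lay only just under control replicate 2. The difference was -0.51 ± 0.14 SE and passed the unadjusted limma threshold of 0.05 but not the adjusted one (adjusted p = 0.557). A second *Gpd2* probe was at background. *Pdk1*, a kinase that inhibits pyruvate dehydrogenase, stood at 6.82, 6.68 and 6.69 in controls and at 7.44, 7.32, 6.87 and 7.07 in Wnt4βKO islets on its brightest probe. All 4 of the latter were higher, and here too the difference, 0.44 ± 0.14 SE, passed the unadjusted threshold alone (adjusted p = 0.616). A second *Pdk1* probe differed by 0.41 (adjusted p = 0.766) and another by -0.023 (adjusted p = 0.982), with groups that overlapped on both.

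*Acot7* encodes a thioesterase that splits long-chain acyl-CoA into fatty acid and coenzyme A. Its bright probe (A_51_P328652) read 7.61, 8.37 and 9.01 in controls. In Wnt4βKO islets it read 7.68, 8.70, 8.45 and 8.62. The groups overlapped fully, and the lowest array of each group, control replicate 2 and Wnt4βKO replicate 1, lay close together. The difference was 0.029 ± 0.37 SE (95% interval -0.83 to 0.88, adjusted p = 0.994), and it turned to -0.027 with cyclic loess and to -0.042 with median scaling. Without control replicate 2 it was -0.33. The second probe (A_65_P03497), at 6.36, 6.86 and 6.99 in controls and 6.24, 6.72, 6.92 and 6.82 in Wnt4βKO islets, gave -0.059 ± 0.20 SE (adjusted p = 0.974). Of the other 13 acyl-CoA thioesterases listed, 9 were tested and 0 had an unadjusted p under 0.05, with differences from -0.13 to 0.24.

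*Oat* encodes ornithine aminotransferase, the mitochondrial enzyme between ornithine and the precursor of proline and glutamate. Its probe (A_55_P2802986) gave 7.47, 7.85 and 8.12 in controls and 7.11, 7.76, 7.72 and 7.70 in Wnt4βKO islets. Wnt4βKO replicate 1 stood apart from the other 3, which lay between the lowest and the middle control. The difference of -0.24 ± 0.21 SE did not exceed the replicate spread (95% interval -0.73 to 0.24, exact permutation p = 0.400, adjusted p = 0.875), and it was -0.69 within slide row 1 and 0.051 within row 2. Without Wnt4βKO replicate 1 it was -0.085. The ornithine and proline list had 7 of 9 genes tested, with 0 at an unadjusted p under 0.05 and a median of -0.10.

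*Pdgfra* encodes the α receptor of platelet-derived growth factor, whose loss with age is known to go with lower β-cell replication. Its probe (A_51_P345649) had raw medians of 20, 21 and 21 in controls and of 21, 19.5, 20 and 21 in Wnt4βKO islets, under a local background of 22 to 25. It was thus at background on every array. Its sister receptor *Pdgfrb*, a pericyte gene, was detected on all 7 arrays and differed by 0.20 (adjusted p = 0.866). The ligand genes *Pdgfa* and *Pdgfb* differed by -0.086 (adjusted p = 0.987) and 0.33 (adjusted p = 0.755), with groups that overlapped. A dimmer *Pdgfa* probe gave 0.12.

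*Maf*, the gene of the transcription factor c-Maf, was likewise not well above background (A_51_P405167). The raw medians were 19, 21 and 23 in controls and 22, 21, 21.5 and 21 in Wnt4βKO islets, over a local background of 23 to 25. Its relative *Mafa*, which drives insulin transcription in mature β-cells, was measured on all 7 arrays and differed by 0.11 (adjusted p = 0.953). Of the 6 other family members 5 were tested, with 0 at an unadjusted p under 0.05.

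*Cxcl12* encodes a chemokine that stromal cells secrete. The bright probe (A_51_P172502) read 7.08, 7.29 and 7.74 in controls. In Wnt4βKO islets it read 6.62, 7.33, 7.60 and 7.93. The Wnt4βKO arrays spanned the whole control range, from the lowest array of all to the highest. Both means were 7.37, with SDs of 0.34 (n = 3) and 0.56 (n = 4). The difference was -7.02e-05 ± 0.31 SE with a 95% interval of -0.72 to 0.72, so a change of that size in either direction could not have been told from none (exact permutation p = 0.971). It was -0.77 within slide row 1 and 0.58 within row 2, and without Wnt4βKO replicate 1 it was 0.24. A second probe (A_55_P1966204) was well above background in control replicate 3 alone, with means of 5.89 in controls and 5.85 in Wnt4βKO islets, and it was not tested. Of its receptors, *Cxcr4* was not well above background with either probe, and the scavenging receptor *Ackr3* differed by -0.26 (adjusted p = 0.799).

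*Fcgrt* encodes the heavy chain of the neonatal Fc receptor, which recycles antibodies and albumin. Its probe (A_51_P161890) lay near background, at 6.01, 6.32 and 6.06 in controls, the first of which was not well above background. In Wnt4βKO islets it gave 6.04, 6.03, 6.32 and 6.25. The groups overlapped, and the difference of 0.031 ± 0.11 SE (95% interval -0.23 to 0.30, adjusted p = 0.975) turned to -0.0077 with cyclic loess and to -0.023 with median scaling. *B2m*, whose product β2-microglobulin completes the receptor, differed by 0.18 (adjusted p = 0.939).

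*Smad3* encodes a transducer of TGF-β signals. Its brighter probe (A_55_P2101001) was at 6.23, 6.20 and 6.21 in controls and at 6.14, 6.25, 6.24 and 6.01 in Wnt4βKO islets. The last of these was the lowest of the 7. The difference was -0.049 ± 0.081 SE (95% interval -0.24 to 0.14, adjusted p = 0.936). A second probe (A_52_P352277) was well above background in control replicate 3 alone, with means of 5.85 in controls and 5.78 in Wnt4βKO islets, and it was not tested. The partner Smads *Smad2* and *Smad4* differed by 0.14 (adjusted p = 0.848) and 0.15 (adjusted p = 0.851) on their brightest probes, though a second *Smad4* probe gave -0.34, and the inhibitory *Smad7* was not well above background. Of the 10 TGF-β and Smad genes listed, 8 were tested, 0 at an unadjusted p under 0.05.

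**Figure D2:**
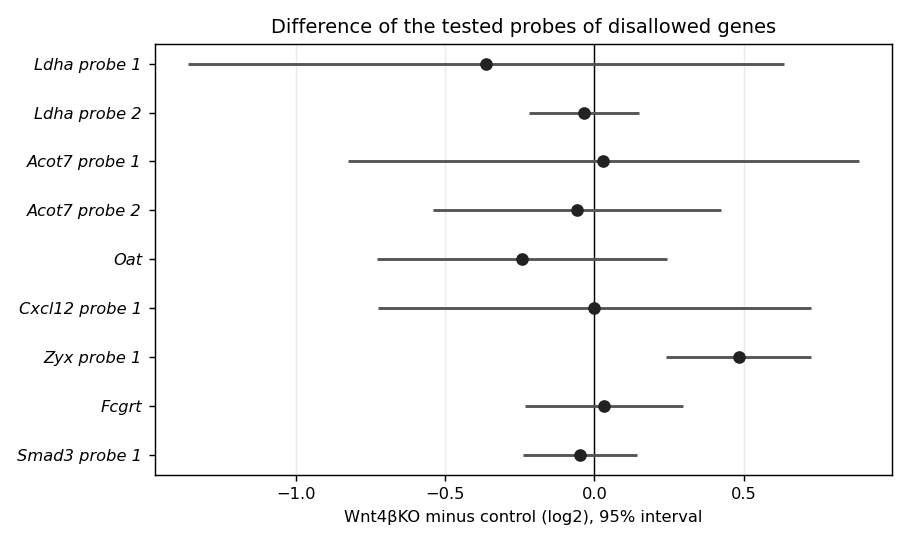
Wnt4βKO minus control difference (log2, horizontal axis) of the 9 tested probes of disallowed genes, with points for the limma estimate and lines for the 95% interval. The *Zyx* interval, 0.24 to 0.72, is the only one that does not cross 0, and that of *Ldha* probe 1, -1.36 to 0.63, is the widest.

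The intervals show what 7 arrays could resolve for each gene on this scale. The 95% interval reached 0.997 to either side of the estimate for *Ldha*, 0.86 for *Acot7* and 0.72 for *Cxcl12*, so smaller changes in these 3 genes could not have been told from none. It reached 0.49 for *Oat*, 0.24 for *Zyx*, 0.26 for *Fcgrt* and 0.19 for *Smad3*. The last pair was read near background, where the offset of 50 compresses differences and their intervals. With an offset of 0 the *Smad3* difference was -0.19 ± 0.25 SE and that of *Fcgrt* 0.11 ± 0.33 SE. With the processed signal they were -0.36 ± 0.33 SE and 0.34 ± 0.54 SE, so their narrow intervals hold for the offset scale only. The SE of *Zyx*, 0.10 in the main fit, also depended on the processing. It was 0.20 with an offset of 0, 0.22 with the processed signal and 0.21 with median scaling. With a trended and robust variance it was 0.16, and with cyclic loess 0.097. In a fit with the acinar mean as a covariate, *Ldha* was at 0.048 ± 0.58 SE and *Oat* at 0.0050 ± 0.27 SE. There *Smad3* was at 0.047 ± 0.11 SE and *Cxcl12* at 0.25 ± 0.43 SE. These values were positive, unlike in the main fit, but each was smaller than its SE. The acinar mean was lower on every Wnt4βKO array than on any control, so that fit cannot separate it from genotype.

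The same arrays were lowest for 4 of the genes. Control replicate 2 and Wnt4βKO replicate 1 were the 2 lowest arrays for *Ldha*, *Acot7*, *Oat* and *Cxcl12*, in 6 of the 9 tested probes, against 5.14% of 26102 tested probes with a value on every array. This pair was chosen after the values were seen, so the count is a description. The same 6 probes had that pair lowest under each of the 6 combinations of background correction and scaling examined. Among the 13 tested disallowed genes outside the 10, the pair was lowest for 4, *Itih5*, *Hk1*, *Ndrg2* and *Rest*, and it was lowest for 0 of the 10 β-cell and 0 of the 15 acinar markers. It was also lowest for 6 of the 10 mesenchymal and pericyte markers, all of which were detected, and for 3 of the 7 endothelial markers. The pair was lowest too for 3 of 9 acyl-CoA thioesterases, 2 of 7 zyxin partners, 2 of 8 TGF-β and Smad genes and 2 of 7 immune markers. For lactate and pyruvate genes the count was 1 of 20, and for candidate repressors, ornithine and proline genes and α-cell markers it was 0. The mesenchymal mean was 6.82, 7.36 and 7.71 in controls and 6.63, 7.15, 7.41 and 7.73 in Wnt4βKO islets. Its part in the levels of these 4 genes was not tested.

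**Figure D3:**
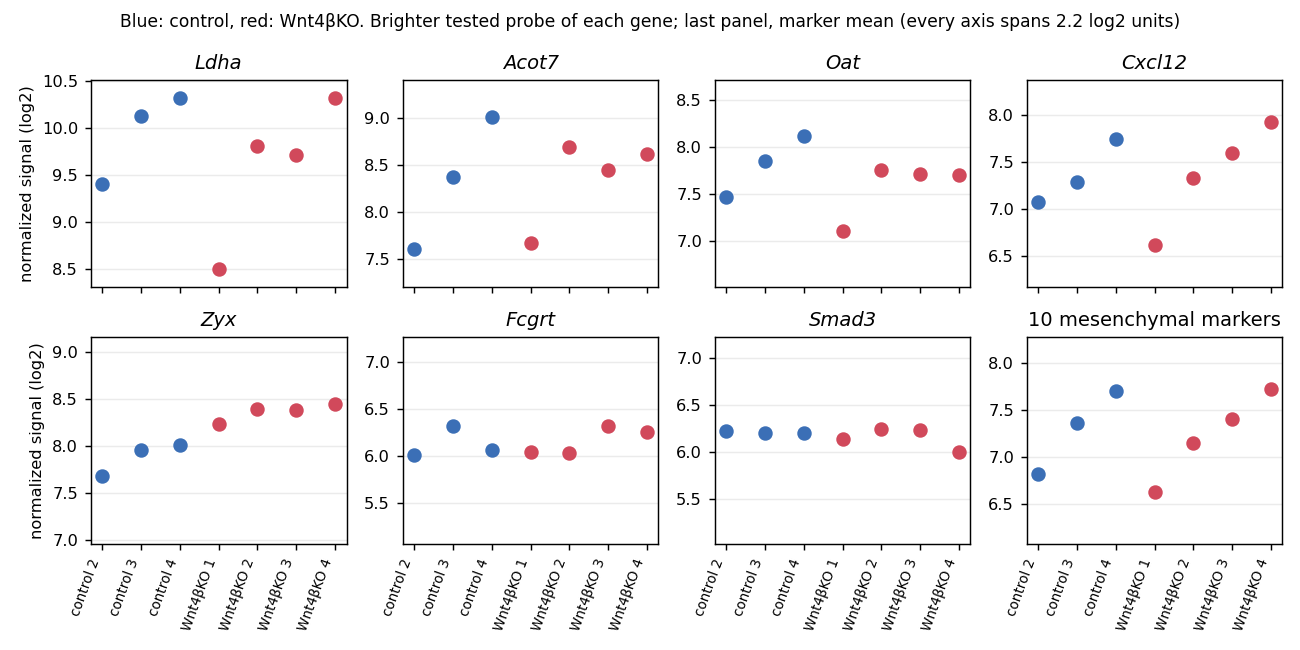
Normalized log2 signal (vertical axis) on each array (horizontal axis) of the brighter tested probe of 7 disallowed genes and, last, the mean of 10 mesenchymal and pericyte markers. Control replicate 2 and Wnt4βKO replicate 1 are the lowest arrays for *Ldha*, *Acot7*, *Oat*, *Cxcl12* and the marker mean, while *Zyx* has Wnt4βKO replicate 1 above every control.

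Among 15 other genes that have been named disallowed in β-cells, 13 were tested, 1 was higher and 1 lower at an unadjusted limma p under 0.05, and 0 passed after adjustment. Their median difference was -0.0036, and the values ran from -0.78 to 0.41. The lowest was *Igf1* (adjusted p = 0.735), with groups that overlapped. *Arhgdib* differed by 0.41 ± 0.16 SE (adjusted p = 0.688) with overlapping groups. The mean of 7 tested immune markers was 7.89 to 7.99 in controls against 7.82 to 8.93 in Wnt4βKO islets, highest in replicate 4. Its part in the *Arhgdib* difference was not tested. *Yap1*, a growth regulator of the Hippo pathway, differed by -0.25 (adjusted p = 0.715), also with overlap. These genes lie outside the naming rule and were picked after their values were seen. *Hk1*, a hexokinase with high affinity for glucose, differed by 0.37 ± 0.31 SE (adjusted p = 0.874), and *Hk2* and *Igfbp4* were not well above background.

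Of 8 candidate repressors 8 were tested and 0 passed after adjustment. Their differences ran from -0.25 to 0.48 with a median of -0.037, and at an unadjusted limma p under 0.05 there were 0 higher and 1 lower. *Dnmt3a* was at 9.32, 9.29 and 9.32 in controls and at 8.93, 9.29, 8.91 and 9.11 in Wnt4βKO islets. The second of the latter lay within the control range. The difference of -0.25 ± 0.11 SE passed the unadjusted threshold alone (adjusted p = 0.709), and a dimmer *Dnmt3a* probe gave -0.048 (adjusted p = 0.929). *Rfx6* differed by -0.076 (adjusted p = 0.967). Over the 97 partner, repressor and other disallowed genes, 82 were tested, with 2 higher and 3 lower at an unadjusted p under 0.05, which is 6.1% beside 6.96% for the whole array.

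**Figure D4:**
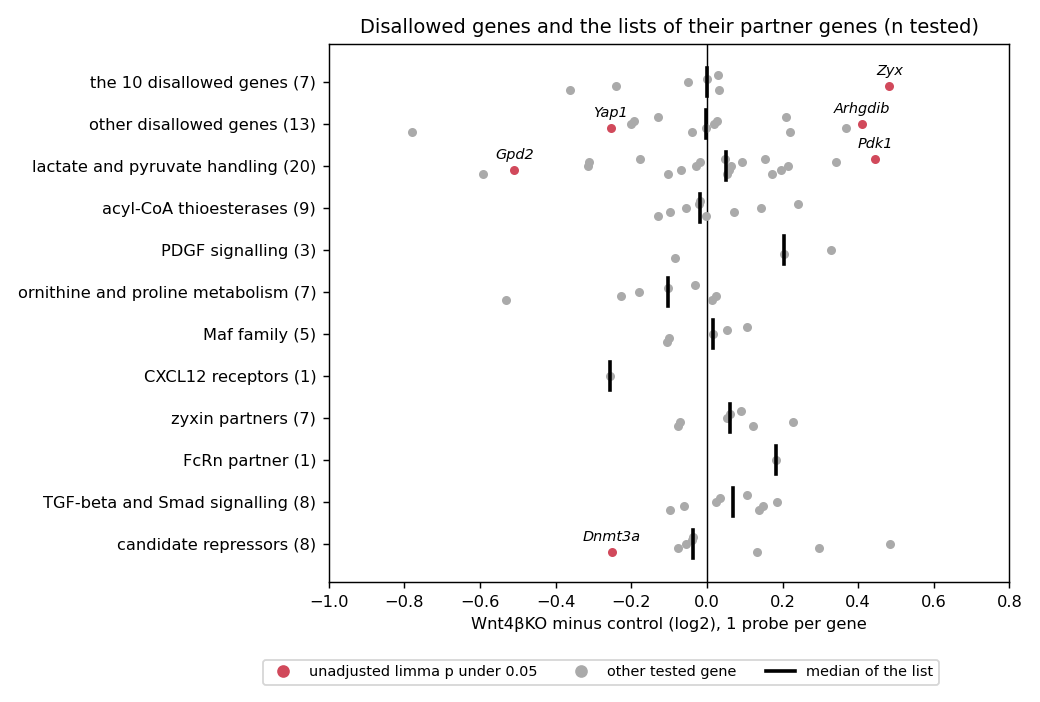
Wnt4βKO minus control difference (log2, horizontal axis) of each tested gene, 1 probe per gene, in the 10 disallowed genes and 11 lists of related genes (vertical axis, number tested in brackets). Red points have an unadjusted limma p under 0.05 and bars are list medians, all of which lie between -0.26 and 0.20; the *Zyx* point is at 0.48.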

How the data were processed

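Islet RNA of 7 mice was analysed, 3 control and 4 Wnt4βKO, grouped by the labels. Cy3 labelling started from 50 ng of RNA per the labels. Of each array the authors deposited a scanner file with spot intensities on a linear scale, not normalized between arrays. The file headers name Feature Extraction 12.0.1.1, and the submitters' processing notes name version 9.1. A deposited table of log2 values was not used, because none of its columns could be matched to an array. The median spot signal was corrected with normexp (offset 50) against the median local background, flagged outlier spots were set to missing, and arrays were quantile normalized, after the authors' methods. Repeated spots of a probe were averaged and control spots left out.

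The test covered 26151 of 56605 probes, those detected well above background on 3 or more arrays. It was two-sided and used limma 3.58.1 (lmFit, then eBayes) in R 4.3.3, and p-values were adjusted over all 26151 probes by the Benjamini-Hochberg method. Exact permutation tests of the difference of means, two-sided with the smaller tail doubled and also on the absolute difference, were run with scipy 1.17.1 on the 9 tested probes of the 10 genes. The script was tested on simulated data. Probes were named by accession through a RefSeq table of GRCm38.p6 (32994 probes, 58.3%). The arrays were designed on another build, so gene coordinates are not given and only promoter windows of GRCm38.p6 are. Where a gene had several probes, the 1 with the highest mean signal represented it. Levels of different probes are not comparable. Precision is limited by the number of arrays. Labels give each array as a separate mouse of its group, and all lay on 1 slide scanned in 1 run.

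The 10 genes, the lists and the named genes were chosen with earlier results of these data known. Named were all 10 genes, 20 listed partners (1 of which is not reported here), and list genes with an adjusted p under 0.05, or an unadjusted p under 0.05 and groups that did not overlap. Alternatives were no background correction, offset 0, cyclic loess, median scaling, the processed signal relative to its 75th percentile, no filter, a filter on all 7 arrays, a trended and robust variance, a replicate block, the acinar mean as covariate, the mean over probes and leaving out each array. The slide row as a block was added after the data were seen.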

Additional observations from a re-analysis of the deposited data

Results flagged for a closer look

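In 4 of 46 values examined within the Wnt4βKO group, 1 array lay far from the other 3, its gap to the nearest array taking a larger share of the group's range than Dixon's 95% critical value. Chance gives about 1 in 20, or 2.3 of 46. The share was 0.919 for *Oat*, where Wnt4βKO replicate 1 was the low array at 7.11, and 0.840 for the dim *Ldha* probe (A_55_P2141876), with the same array at 5.90. It was 0.831 for *Slc16a1*, where Wnt4βKO replicate 2 was highest at 5.94 on a probe at background. For *Slc16a7* it was 0.830, with Wnt4βKO replicate 1 highest at 7.995.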

How the results depend on the processing

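The count of disallowed gene probes with an adjusted p under 0.05 was 0 under every alternative that gives a count. *Zyx* stayed positive under all 19 alternatives (0.38 to 0.78, unadjusted p 0.00167 to 0.0706, adjusted p 0.404 to 0.99993), and the count of these probes higher at an unadjusted p under 0.05 was 0 with median scaling. The median of the 7 tested genes ran from -0.12 to 0.070, and from -0.15 to 0.070 with each array left out. *Acot7* turned negative with cyclic loess (-0.027), median scaling (-0.042), the mean over its probes (-0.015) and the slide row as a block (-0.0036). *Fcgrt* did so with cyclic loess (-0.0077) and median scaling (-0.023), and had no value with the filter on all 7 arrays. The offset moved *Smad3* to -0.19 and *Fcgrt* to 0.11 when set to 0, and the processed signal to -0.36 and 0.34. With the acinar mean as covariate the differences were 0.048 for *Ldha*, 0.0050 for *Oat*, 0.047 for *Smad3* and 0.25 for *Cxcl12*, and *Cxcl12* was at 0.041 in the fit with the slide row. Leaving out each array gave -0.33 to 0.37 for *Acot7*, -0.19 to 0.24 for *Cxcl12*, -0.029 to 0.12 for *Fcgrt*, -0.079 to 0.0024 for *Smad3*, -0.64 to -0.0023 for *Ldha* and -0.42 to -0.085 for *Oat*. The cause was not tested.

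Over the whole array, 4 probes had an adjusted p under 0.05, 7 with the processed signal, 2 with the replicate block, 2 with the acinar covariate and 2 to 5 with an array left out, with 2 where control replicate 2, 3 or 4 or Wnt4βKO replicate 3 was left out. At an unadjusted p under 0.05 there were 1821, 770 with median scaling, 2909 with no filter and 699 with the acinar covariate. The mean over probes gives no count of probes.

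The labels give replicate numbers 2, 3 and 4 to both groups but do not call them a pairing, and the number was not taken as one. Deviations of samples of the same number from their group means correlated at -0.13, 0.23 and -0.0069 over 26102 probes. With so few arrays per group these correlations cannot decide whether samples of a number were paired. With the replicate block, which leaves out Wnt4βKO replicate 1, *Cxcl12* was at 0.25 (past the unadjusted threshold of 0.05, adjusted p = 0.813) and the count of disallowed gene probes higher at an unadjusted p under 0.05 was 2.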
